A study of Homo sapiens with 12 samples.

Results

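The nuclear tRNA genes of chromosome 1 were described in peak lists of 2 chromatin-bound nucleases. The 85 genes were taken from the RefSeq gene table of GRCh38 by their biotype (tRNA) and by symbols that begin with TR and an amino acid code, and only on the assembled chromosome. They are 85 of the 429 nuclear tRNA genes of the assembled chromosomes and 85 of the 58961 genes kept from the table. A gene was said to have a peak when a peak overlapped the gene extended by 1 kb on each side. No measured value entered the choice of genes, although the long-arm cluster of repeated genes was singled out because REXO4 peaks were known there.

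Transfer RNAs carry amino acids to the ribosome, and each reads its codons with a triplet called the anticodon. Their genes are short and are transcribed by RNA polymerase III from a promoter inside the gene: TFIIIC binds the A and B boxes, then places TFIIIB upstream, and TFIIIB recruits the polymerase, which stops at a run of thymines. Human tRNA genes occur in many copies, often in clusters. A symbol such as TRH-GTG1-3 gives the amino acid (H, histidine), the anticodon (GTG), a number shared by genes with the same mature tRNA, and the copy. R-loops, stretches where RNA is paired with 1 DNA strand and the other DNA strand is free, have been described at tRNA genes in several organisms.

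The study used U2OS, a human osteosarcoma line that maintains telomeres by recombination, with tet-on expression of a nuclease-dead protein. RNaseH1 cuts the RNA strand of RNA-DNA hybrids, and REXO4 belongs to a family of RNA exonucleases and is found in the nucleolus. The 12 libraries formed 8 groups: cells with REXO4-D386A and cells with RNaseH1-D210N, each with 1 µg/ml doxycycline for about 60 h or without it, with 2 Flag ChIP libraries and 1 input library per condition. Both lines carry a transgene next to the cell's own enzymes, and the groups have no line without one. The labels do not say whether a line is 1 clone. The deposited peak lists, 1 per protein, name neither doxycycline condition nor replicate, so no value below is tied to a library and none has a replicate error. Peak positions carry no expression level against which the cell type could be checked.

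The RNaseH1 list held 54623 peaks, 5022 of them on chromosome 1, with a median fold enrichment of 3.07. The REXO4 list held 1460 peaks, 145 of them on chromosome 1, with a median fold enrichment of 2.30. Fold enrichment is the authors' deposited ratio of fragments at the summit, the highest point of a peak, to the pileup expected there. The fragments and expected pileups below were recovered with 1 added to both terms of that ratio, so their plain quotient differs from the fold. A median RNaseH1 summit held 23 fragments against an expected 7.14, and a median REXO4 summit 80 against 36.6. Intervals given below are 95% exact Poisson intervals of the fragments and cover counting error only. Folds are set side by side only within 1 list.

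Sequences that RefSeq (GRCh38.p14) gave for these genes lay in promoter windows of neighbouring genes, which covered 3 of the 85 genes whole and 1 in part. None of them carried a REXO4 peak. They are shown because they set genes without an RNaseH1 peak beside a gene with a high one and a gene with a peak only at its side. Each is written 5′ to 3′ in the gene's own direction, read here from the place of the anticodon and the B box because the table gives no strand, with the anticodon in capitals.
TRN-GTT4-1 (asparagine, chr1:16889677-16889750, plus strand, nearest RNaseH1 peak 154 bp away with a fold of 2.39): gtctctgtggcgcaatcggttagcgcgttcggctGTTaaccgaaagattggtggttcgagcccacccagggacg
TRN-GTT6-1 (asparagine, chr1:143735920-143735993, minus strand, no RNaseH1 peak): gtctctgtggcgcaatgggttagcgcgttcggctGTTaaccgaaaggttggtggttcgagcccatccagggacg
TRH-GTG1-3 (histidine, chr1:148281365-148281436, plus strand, inside an RNaseH1 peak with a fold of 12.3): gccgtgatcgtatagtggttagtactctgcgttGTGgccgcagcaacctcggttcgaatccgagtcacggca
TRQ-CTG7-1 (glutamine, the first 60 of 72 bases, chr1:148328812-148328871, plus strand, no RNaseH1 peak): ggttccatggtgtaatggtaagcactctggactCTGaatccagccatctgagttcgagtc

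In all 4 genes a strand held the symbol's anticodon where a tRNA has it. The strand was chosen by this and, where both strands held it, by the box matches, so neither is a separate check of the reading. The asparagine genes agreed at 71 of 74 bases and differed by C17G, A47G and C65T, counted from the 5′ end of the gene with the TRN-GTT4-1 base first. The histidine gene was identical over all 72 bases to TRH-GTG1-9, a copy on chromosome 15. The B box core GTTCNANNC, where N is any base, began at base 54 of both asparagine genes and at base 52 of the histidine and glutamine genes. In promoter windows of 300 bases over all genes it was found on either strand in 7.49% of 34943. The A box core TNGCNNAG was not matched in these 4 genes, which says only that those letters are not there, and 43.0% of the windows held it. The first TTTT lay 12 bp after both asparagine genes and 32 bp after the histidine gene, and 71.4% of windows held one on either strand. The gene with a high RNaseH1 fold and the 2 genes without a peak thus all held a B box core.

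RNaseH1 peaks lay at most tRNA genes of chromosome 1, and REXO4 peaks at a minority. An RNaseH1 peak was present at 68 of the 85 genes (80.0%), where 42.8% of all genes and 12.1% of genes of at most 200 bp other than tRNA genes had one. A REXO4 peak was present at 19 genes (22.35%), where 2.61% of all genes and 0.612% of the other short genes had one. All 19 also had an RNaseH1 peak, and all 19 lay in a single cluster of the long arm. The 68 genes shared 58 RNaseH1 peaks and the 19 genes shared 9 REXO4 peaks, so neighbouring genes are not independent observations.

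Taking the highest peak at each gene, the median RNaseH1 fold was 6.7 over the 68 genes (2.39 to 30.04). The interquartile range was 5.75 to 12.45, and 21 genes reached 10 or more. For comparison, genes of all kinds with an RNaseH1 peak had a median of 3.40. The 154 tRNA genes of chromosome 6 had RNaseH1 peaks at 112 (72.73%), with a median fold of 8.50 and no REXO4 peak. The 190 tRNA genes of the other chromosomes had RNaseH1 peaks at 165 (86.84%), with a median of 14.3 and 1 REXO4 peak. The chromosome 1 median was the lowest of these 3 sets of tRNA genes, a description without a test. Over the 43 genes with a peak outside the cluster of repeated genes it was 9.15, above the 8.50 of chromosome 6. That removal was chosen after seeing the data, and nothing was removed from the other sets, so the comparison is not a like one. In all 3 sets, genes that share a peak are counted separately. The 24 tRNA pseudogenes of chromosome 1 had RNaseH1 peaks at 7 (29.17%), with a median of 3.31. Their highest folds, 8.93 at TRD-GTC10-1 and 6.43 at TRUND-NNN3-1, belong to peaks whose summits lie in TRG-GCC2-1 and 7 bp from TRE-TTC4-2. The next pseudogene was TRV-CAC11-1 with 4.12. TRUND-NNN3-1 also held a summit inside it, from a weaker peak with a fold of 3.82.

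RNaseH1 summits gathered in or close to the genes. Of the 58 RNaseH1 peaks, 15 had the summit inside a tRNA gene, 36 within 100 bp of one and 43 within 250 bp, with a median distance to the gene edge of 46.5 bp. The peaks were 250 to 4528 bp wide, with a median of 861.5 bp against 365 bp in the whole list, and 15 of them covered or flanked 2 or more tRNA genes. By fold, 7 of the 58 stood among the 100 highest of the list and 35 among the 1000 highest. A peak touched the gene itself at 62 of the 68 genes. The other 6 were TRN-GTT4-1, TRV-CAC5-1, TRQ-CTG3-1, TRN-GTT9-2, TRL-CAG1-1 and TRL-CAA6-1. The farthest of these peaks lay 360 bp from TRN-GTT9-2 with a fold of 2.82, and the nearest peak left outside the window lay 1270 bp from TRN-GTT25-1 with a fold of 3.06.

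**Figure D1:**
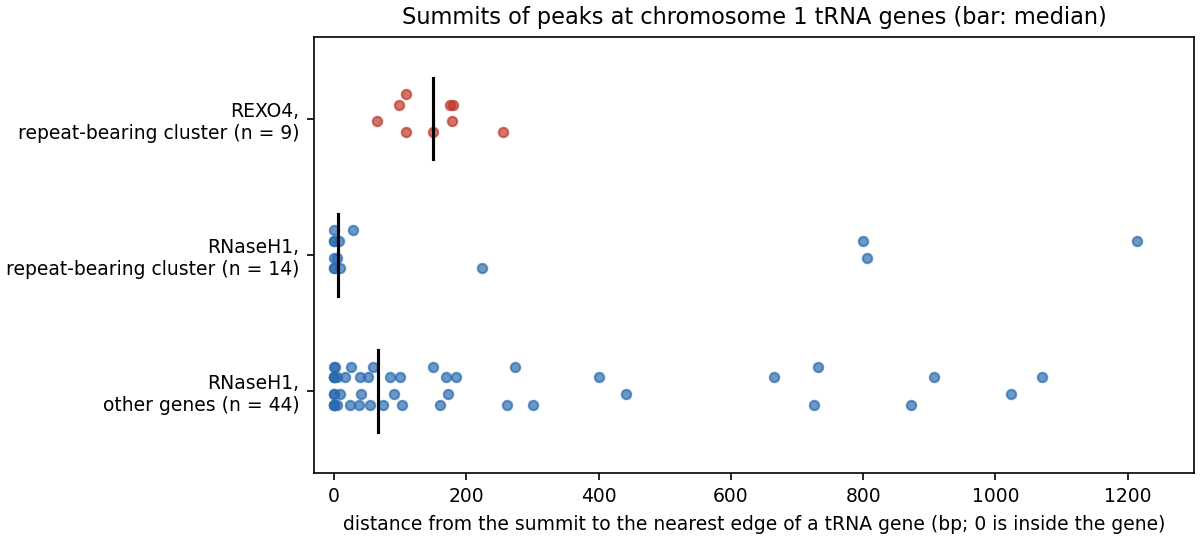
Distance in bp from each summit to the nearest edge of a tRNA gene for the 44 RNaseH1 peaks at other chromosome 1 tRNA genes, the 14 RNaseH1 peaks of the long-arm cluster with repeated genes and the 9 REXO4 peaks, all in that cluster; each point is a peak, black bars are medians, and the vertical scatter has no meaning. Of the 58 RNaseH1 summits, 15 lie at 0, inside a gene, and 36 within 100 bp of one, and all 9 REXO4 summits lie 65 to 255 bp outside.

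The highest RNaseH1 fold was at a pair of lysine genes. TRK-TTT3-1 and TRK-TTT3-2, in a span of 576 bp that lies 9304 bp from MDM4, which encodes an inhibitor of p53, shared a peak with 333 fragments against an expected 10.1. Its fold of 30.04 (26.9 to 33.4) ranked 10 in the list of 54623. The proline genes TRP-CGG1-1 and TRP-AGG2-1 shared the next, with 643 fragments against 25.6 and a fold of 24.2 (22.4 to 26.2, rank 24). These 2 peaks do not overlap in their intervals. TRL-CAA6-1, a leucine gene 11167 bp from FCGR3B, followed with 21.5 (19.2 to 24.0, rank 35), although the summit stood 665 bp from the gene.

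The remaining peaks among the 12 genes of highest fold had overlapping intervals in part. TRL-CAG1-6 (leucine) and TRG-TCC2-6 (glycine), next to the heat shock gene HSPA6, shared a peak with a fold of 20.4 (18.3 to 22.7). TRG-CCC1-1, a glycine gene of the short arm, had 16.6 (14.96 to 18.28). TRG-TCC2-1, TRH-GTG1-1 and TRK-CTT2-1, a glycine, a histidine and a lysine gene, shared a fold of 16.0 (14.2 to 17.9). The summit of that peak lay 4 bp from TRK-CTT2-1. With TRE-CTC1-1 these genes form a cluster of 4 that spans 3782 bp. TRR-TCT1-1, an arginine gene within the span of BCAR3, had 15.2 (13.9 to 16.6) and ranked 98. REXO4 peaks were absent from all 21 genes whose RNaseH1 fold reached 10, where 22.35% of the 85 genes had one. Of the 21, 19 lay outside the 26 long-arm genes between 161400000 and 161500000, which include every gene with a REXO4 peak. The other 2, TRG-GCC1-1 and TRG-GCC1-3, lay 1809 and 1608 bp from a REXO4 peak, beyond the window. Among the 19, TRL-CAG1-6, TRG-TCC2-6 and TRL-CAA6-1 lie past these bounds but in the same chain of genes at gaps of up to 100 kb.

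By amino acid, RNaseH1 peaks lay at all glycine, glutamate, leucine, valine and aspartate genes but TRG-GCC4-1 and an unnumbered TRNAV-CAC gene, and at 9 of the 17 asparagine genes. Glycine, the largest set, had RNaseH1 peaks at 17 of 18 genes with a median fold of 9.12 and a highest of 20.4 at TRG-TCC2-6. All 9 glutamate genes had one, with a median of 6.57 and a highest of 12.8 at TRE-CTC2-1. All 8 leucine genes had one, with a median of 6.81 and a highest of 21.5 at TRL-CAA6-1. Valine had 6 of 7, with a median of 5.63 and a highest of 9.53 at an unnumbered TRNAV-CAC gene. Aspartate had 5 of 5, all in the long-arm cluster of repeated genes, with a median of 6.4 and a highest of 7.04 at TRD-GTC2-2.

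Of the 17 genes without an RNaseH1 peak on the chromosome, 8 were asparagine genes. The 9 asparagine genes with a peak had a median fold of 3.59. The highest were TRN-GTT7-1, with 185 fragments against 12.5 and a fold of 13.8 (11.9 to 15.9), and TRN-GTT1-1, 1445 bp from FCGR3A, with 9.97 (8.05 to 12.2). The other 7 lay between 2.39 and 5.46, on either side of the list median of 3.07. Of the 5 glutamine genes, 2 had a peak, with 4.07 at TRQ-CTG3-1 and 6.35 at TRQ-CTG4-1. TRQ-CTG4-2, TRQ-CTG3-2 and TRQ-CTG7-1 had none. On these few genes, the share was near the 42.8% of all genes and above the 12.1% of other genes of at most 200 bp.

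Lysine had peaks at 3 of 5 genes, with the shared fold of 30.04 at TRK-TTT3-1 and TRK-TTT3-2, 16.0 at TRK-CTT2-1 and none at TRK-CTT7-1 or TRK-TTT8-1. Histidine had 3 of 4, of which TRH-GTG1-1 took its highest fold from the peak at TRK-CTT2-1, and arginine had 1 of 2, at TRR-TCT1-1. TRX-CAT1-1, the initiator methionine gene 257 bp from ILF2, had 6.10 (4.99 to 7.38) with its summit inside the gene. TRT-TGT2-1 (threonine) had 4.91 (3.87 to 6.14), and TRC-GCA7-1 (cysteine), within the span of FNBP1L, had 2.95 (1.91 to 4.36), below the median of the list. The 14 amino acids were carried by 20 anticodons, and within glycine TCC genes had a REXO4 peak at 5 of 7, GCC genes at 0 of 6 and CCC genes at 0 of 5, a difference that was not tested. The GCC count depends on the window, since TRG-GCC1-1 to TRG-GCC1-4 lay 1585 to 1809 bp from a REXO4 peak and have one at a window of 2500 bp.

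**Figure D2:**
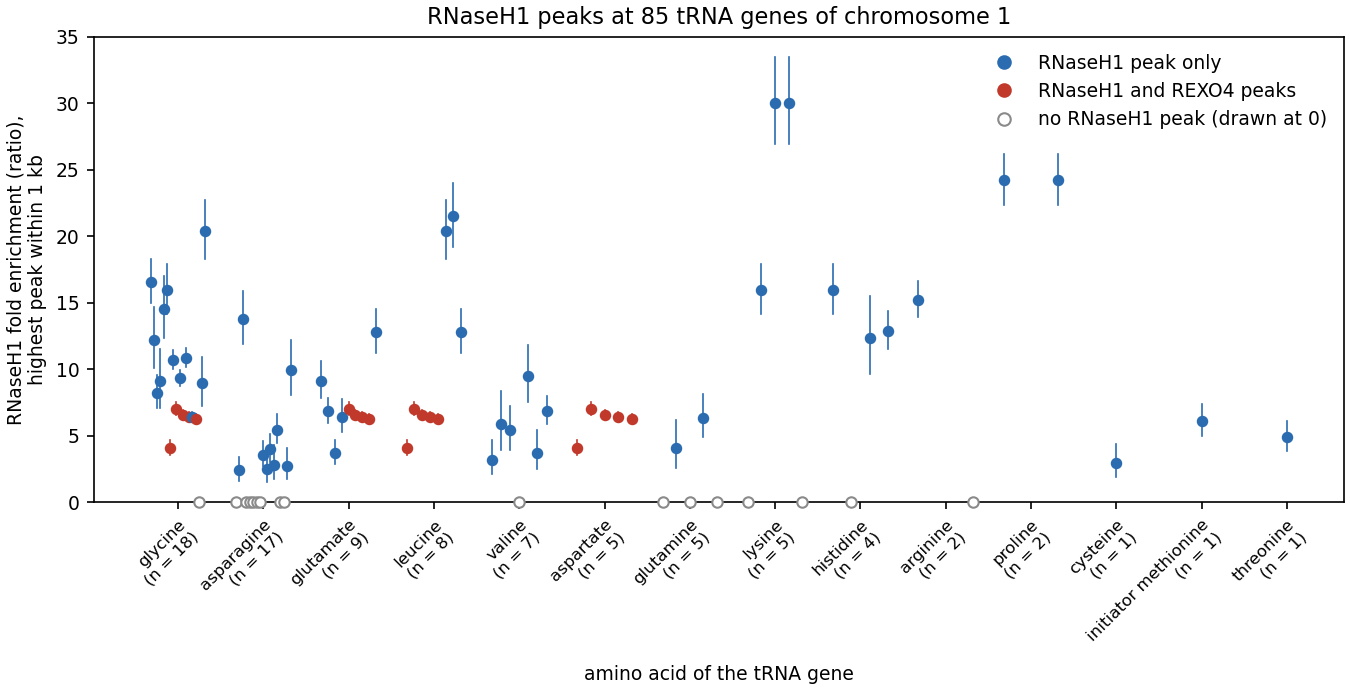
RNaseH1 fold enrichment (ratio) of the highest peak within 1 kb of each of the 85 tRNA genes, grouped by amino acid with the number of genes; vertical lines are 95% Poisson intervals of the fragments, red marks genes that also have a REXO4 peak, and open circles at 0 mark the 17 genes without an RNaseH1 peak. Lysine and proline hold the highest points, 8 of the open circles are asparagine genes, and no red point exceeds 7.04.

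Copies of the same mature tRNA had unequal RNaseH1 folds, in part within counting error. Of 4 TRH-GTG1 copies, TRH-GTG1-3, the histidine gene whose sequence is given, had 12.3 (9.65 to 15.5) and TRH-GTG1-4 had 12.9 (11.5 to 14.4), with overlapping intervals. TRH-GTG1-1 lay in the peak of 16.0 with its summit at TRK-CTT2-1, and TRH-GTG1-2 had no peak. Of 4 TRN-GTT2 copies, TRN-GTT2-1 had 5.46 (4.46 to 6.62), TRN-GTT2-7 had 3.59 (2.73 to 4.64), TRN-GTT2-2 had 2.75 (1.78 to 4.06) and TRN-GTT2-8 had no peak. Across the TRN-GTT2 copies with a peak, neighbours in this order overlapped in their intervals, while the highest, TRN-GTT2-1, and the lowest, TRN-GTT2-2, did not. The sources used here do not say how reads of near-identical copies were placed, and the part of that placement in these differences was not tested.

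Along the chromosome, 70 genes fell into 15 clusters of 2 or more, chained at gaps of up to 100 kb, and 15 genes stood alone. The 15 short-arm genes had RNaseH1 peaks at 12, with a median fold of 9.14, and the 70 long-arm genes at 56, with a median of 6.57. The genes standing alone had a peak at 8 of 15. Those with one were TRC-GCA7-1, TRR-TCT1-1, TRN-GTT7-1, TRN-GTT2-7 (3.59), TRN-GTT24-1 (3.99), TRN-GTT2-1, TRX-CAT1-1 and TRT-TGT2-1. Those without were TRK-CTT7-1, TRN-GTT3-1, TRN-GTT2-8, TRH-GTG1-2, TRN-GTT25-1, TRK-TTT8-1 and TRR-TCT4-1, which lies within the span of the DNA sensor gene AIM2. The 17 genes without a peak lay a median of 6450 bp from the nearest RNaseH1 peak, and the farthest, TRN-GTT10-1, lay 31632 bp away.

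**Figure D3:**
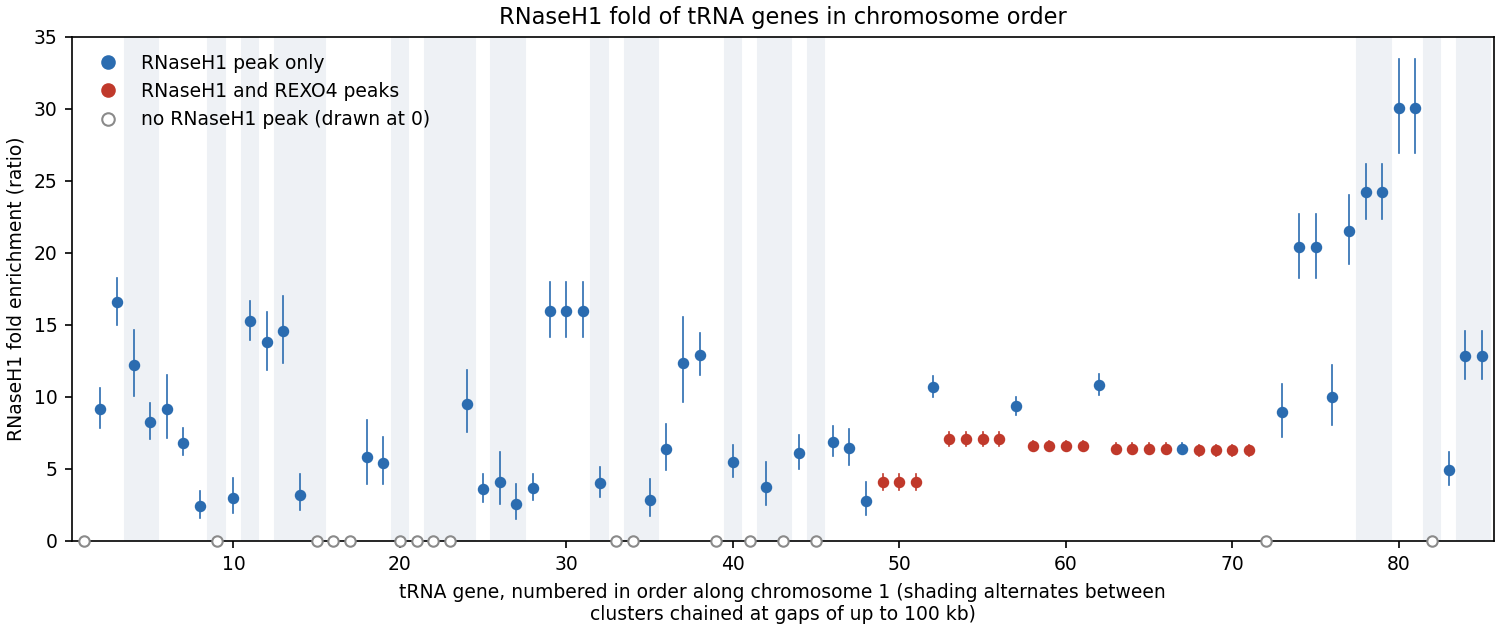
RNaseH1 fold enrichment (ratio) of the 85 tRNA genes numbered in order along chromosome 1, with 95% Poisson intervals of the fragments; grey shading alternates between clusters, red marks genes with a REXO4 peak and open circles at 0 mark genes without an RNaseH1 peak. The red points form a run at 4.06 to 7.04, broken by the GCC glycine genes, and the highest folds, from 20.4 to 30.04, lie to its right.

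On the short arm, 8 genes between 16520585 and 16889750 had RNaseH1 peaks at 7. They hold a mirrored arrangement: TRE-TTC4-1 is followed 10588 bp on by TRG-CCC1-1, and TRG-CCC1-2 is followed 10591 bp on by TRE-TTC3-1. The glutamate genes had folds of 9.15 (7.86 to 10.6) and 6.83 (5.94 to 7.80), and the glycine genes 16.6 (14.96 to 18.28) and 9.12 (7.12 to 11.5). The copies with the same mature glycine tRNA thus did not overlap in their intervals. Between them, TRG-CCC4-1 had 12.2 (10.1 to 14.7) and TRG-CCC5-1 had 8.24 (7.07 to 9.55). The asparagine genes at both ends were weak, with no peak at TRN-GTT5-1 and the side peak of 2.39 (1.60 to 3.44) at TRN-GTT4-1.

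The proximal long arm, between 143691474 and 149740321, held 28 genes, a stretch chosen after its values were seen. Only 17 of the 28 had an RNaseH1 peak, with a median fold of 5.46, and 11 of the 17 genes without a peak lay here. Several arrangements of neighbours recur in it and just across the centromere. A 71 bp and a 73 bp gene lie 3813 to 3882 bp apart at 3 places. The 71 bp genes had folds of 14.5 (TRG-CCC6-1), 5.85 (TRV-CAC8-1) and 9.53 (TRNAV-CAC at 145161108). Their 73 bp neighbours had 3.19 (TRV-CAC5-1), 5.40 (TRV-CAC4-1) and no peak (TRNAV-CAC at 145157157). At the second place the intervals overlapped (3.95 to 8.36 and 3.95 to 7.24), and at the first they did not.

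Asparagine genes sat at repeated positions in this region too. TRN-GTT27-1, TRN-GTT8-1 and TRN-GTT10-1 each lay 27623 to 27844 bp from a 73 bp valine gene, and none of the 3 had a peak. TRN-GTT7-1, TRN-GTT3-1, TRN-GTT2-7, TRN-GTT2-1 and TRN-GTT25-1 each lay 2033 to 2061 bp from a gene of the NBPF family, which multiplied by segmental duplication in primates. Their RNaseH1 folds were 13.8, none, 3.59, 5.46 and none in that order, so a matched position beside NBPF26, NBPF15, NBPF20, NBPF14 and NBPF19 did not go with a matched fold. TRN-GTT2-8 and TRN-GTT24-1 lay 25305 and 25336 bp from PPIAL4F and PPIAL4H, with no peak and 3.99 (3.06 to 5.12). TRQ-CTG3-1 with TRN-GTT9-1 and TRQ-CTG3-2 with TRN-GTT9-2 kept gaps of 15651 and 15654 bp. The asparagine copies had 2.53 (1.53 to 3.97) and 2.82 (1.75 to 4.32), and of the glutamine copies only TRQ-CTG3-1 had a peak, with 20 fragments and 4.07 (2.56 to 6.17). Peaks at these duplicated genes other than that of TRN-GTT7-1 rested on 17 to 102 fragments.

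The REXO4 peaks all lay in the cluster of 26 genes between 161422093 and 161480636, which ends 24821 bp from FCGR2A, an Fc receptor gene. These are the genes within the bounds 161400000 and 161500000. Chained at gaps of up to 100 kb, they are part of a longer run of 32 genes. RNaseH1 peaks were present at 25 of the 26, with a median fold of 6.4 (2.75 to 10.8), and only TRG-GCC4-1 had none. REXO4 peaks were present at 19 of the 26, with a median fold of 2.86 (1.96 to 3.66). The core of the cluster is a tandem array in which TRD-GTC2-1 to TRD-GTC2-5, the aspartate genes, follow each other at 7418, 7381, 7410 and 7381 bp. Each repeat carries, in order, a glutamate gene (CTC), a glycine gene (TCC), the aspartate gene (GTC), a leucine gene (CAG) and a glycine gene (GCC). The first repeat has TRG-TCC4-1 as its TCC gene and no CTC gene, and the fifth has no GCC1 gene.

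REXO4 summits stood at 2 places of the repeat, between the tRNA genes. Here before, after, start and end follow coordinates along the chromosome and not the direction of transcription, as the gene table has no strand. In repeats 2 to 5 a summit lay 478 to 522 bp before the start of the aspartate gene and 65 to 109 bp after the end of the TCC glycine gene. In all 5 repeats another lay 453 to 558 bp after that start and 150 to 255 bp before the leucine gene. The 4 summits before the aspartate gene had folds of 2.13 (1.96 to 2.32), 2.12 (1.94 to 2.30), 2.23 (2.04 to 2.44) and 1.96 (1.78 to 2.15) in repeats 2 to 5. The 5 summits after it had 3.66 (3.20 to 4.17), 2.44 (2.19 to 2.71), 2.86 (2.57 to 3.17), 3.14 (2.82 to 3.49) and 3.03 (2.72 to 3.37) in repeats 1 to 5. In repeats 3, 4 and 5 the intervals of the 2 places did not overlap, and in repeat 2 they did. How reads of near-identical copies were placed is not given for this array either. The repeats are thus not independent observations in either list, and the part of read placement in their likeness was not tested.

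The lower folds before the aspartate gene went with more fragments. Those 4 summits held 429 to 552 fragments against an expected 217.6 to 258.5, and the 5 after it held 227 to 358 against 61.3 to 143.8. Both expected ranges lie above the list median of 36.6. By q, the 9 peaks ranked 39 to 63 of 1460, and by fold the best ranked 230. The REXO4 peaks were 463 to 903 bp wide and overlapped the span of 8 genes, TRG-TCC2-2 to TRG-TCC2-5 and TRL-CAG1-2 to TRL-CAG1-5. The glutamate, aspartate and other genes were reached only through the window of 1 kb.

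**Figure D4:**
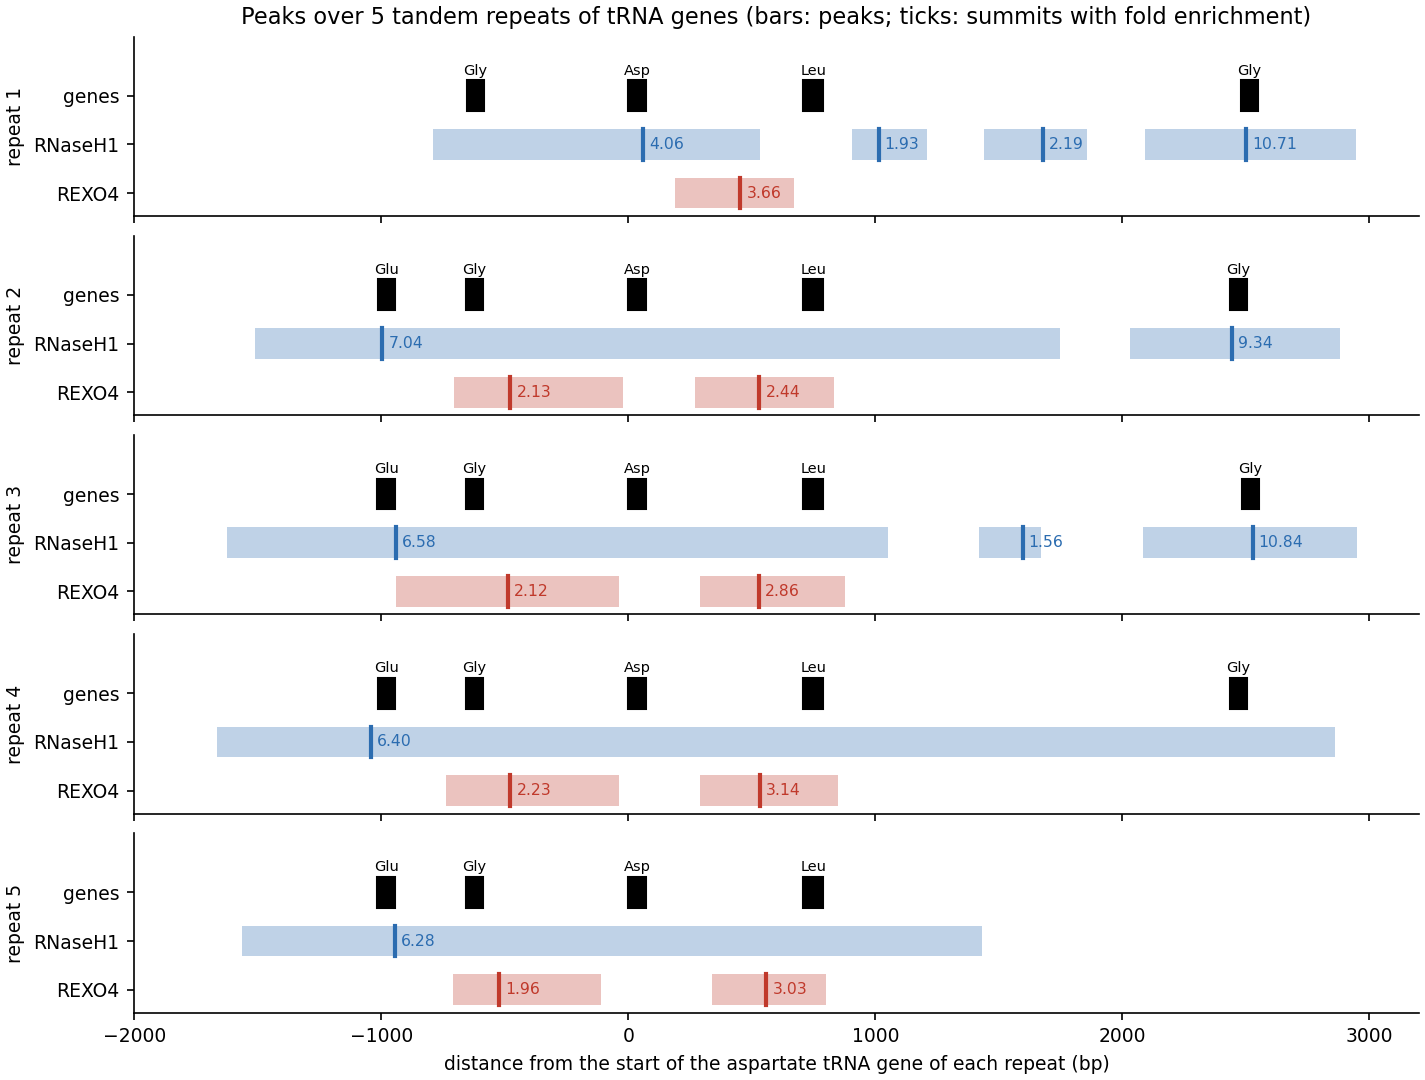
Positions of tRNA genes (black), RNaseH1 peaks (blue) and REXO4 peaks (red) in the 5 tandem repeats, as distance in bp from the start of the aspartate gene of each repeat; the Gly gene left of Asp has the anticodon TCC and the one on the far right GCC, shaded bars are peaks, ticks are summits, and the printed numbers are fold enrichments (ratio), to be read within a list only. The REXO4 ticks line up before and after the aspartate gene in chromosome coordinates, as gene strands were not given. In repeats 2 to 5 the RNaseH1 ticks line up near the CTC glutamate gene. Where the GCC peak is separate, they also line up at the GCC glycine gene. A weak peak of repeat 3 (fold 1.56), between the leucine and GCC genes, is the exception.

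RNaseH1 covered the same repeats with other summits. All 9 REXO4 peaks overlapped an RNaseH1 peak, yet the nearest RNaseH1 summit stood 394 to 1575 bp away. In repeats 2 to 5 a broad RNaseH1 peak spanned the glutamate, TCC glycine, aspartate and leucine genes, with its summit inside the glutamate gene or at most 28 bp from it. Its folds were 7.04 (6.55 to 7.56), 6.58 (6.21 to 6.96), 6.4 (6.005 to 6.815) and 6.28 (5.91 to 6.66), with 771 to 1211 fragments against an expected 108.6 to 183.3. These 4 intervals overlapped each other, so counting error does not separate these repeats. The first repeat, which lacks the glutamate gene, had its summit inside TRD-GTC2-1 and a fold of 4.06 (3.52 to 4.67), below the other 4 intervals.

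The GCC glycine genes carried the highest RNaseH1 folds of the array and had no REXO4 peak within 1 kb, although the nearest lay 1585 to 1809 bp away and all 4 genes gain one at a window of 2500 bp. TRG-GCC1-1, TRG-GCC1-2 and TRG-GCC1-3 had folds of 10.7 (10.0 to 11.5), 9.34 (8.75 to 9.96) and 10.8 (10.2 to 11.6), each with the summit inside the gene. Their lowest bound lies above the highest bound of the 4 broad peaks. TRG-GCC1-4 lay within the broad peak of repeat 4, which ran on to it over 4528 bp, the widest at any of these genes. Outside the array, TRE-TTC4-2 had 6.43 (5.27 to 7.78) and TRN-GTT2-2 had 2.75, neither with a REXO4 peak. The genes with a REXO4 peak thus ran from TRG-TCC4-1 to TRL-CAG1-5, between 161440171 and 161471205.

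Peaks over leucine and TCC glycine genes of the array had lower RNaseH1 folds than peaks at copies of the same tRNAs elsewhere and, apart from the 199 fragments of the first repeat, more fragments. These folds belong to shared peaks and were not measured at each copy: the array summits lay at the glutamate genes or, in the first repeat, in TRD-GTC2-1, and the summit of the peak that TRL-CAG1-6 shares lay 52 bp from TRG-TCC2-6. TRL-CAG1-1 to TRL-CAG1-5 had 4.06 to 7.04 in the array, where the peak nearest to TRL-CAG1-1 had only 1.93. TRL-CAG1-6, outside it, had 20.4. TRG-TCC2-2 to TRG-TCC2-5 had 6.28 to 7.04, where TRG-TCC2-6 had 20.4 and TRG-TCC2-1 had 11.3 (9.17 to 13.9) in the peak that overlaps it and 16.0 in that of TRK-CTT2-1. The glutamate genes went the other way, with 6.28 to 7.04 at TRE-CTC1-2 to TRE-CTC1-5 and 3.67 (2.85 to 4.65) at TRE-CTC1-1. The expected pileup at the best RNaseH1 peak had a median of 151.2 at the 25 genes of the cluster with a peak (7.74 to 183.3) and of 14.3 at the 43 genes elsewhere (3.96 to 32.1). The fragments had medians of 973 and 113. These are medians over genes, and a shared peak counts once for each of its genes. The broad peaks of the array therefore weigh more in the cluster values than peaks at a single gene. Fold divides by the expected pileup, so the broad peak of repeat 2, with a fold of 7.04, held 771 fragments, and the peak of TRL-CAG1-6 and TRG-TCC2-6, with 20.4, held 335. The part of the raised expected pileup in the folds of both lists was not tested.

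**Figure D5:**
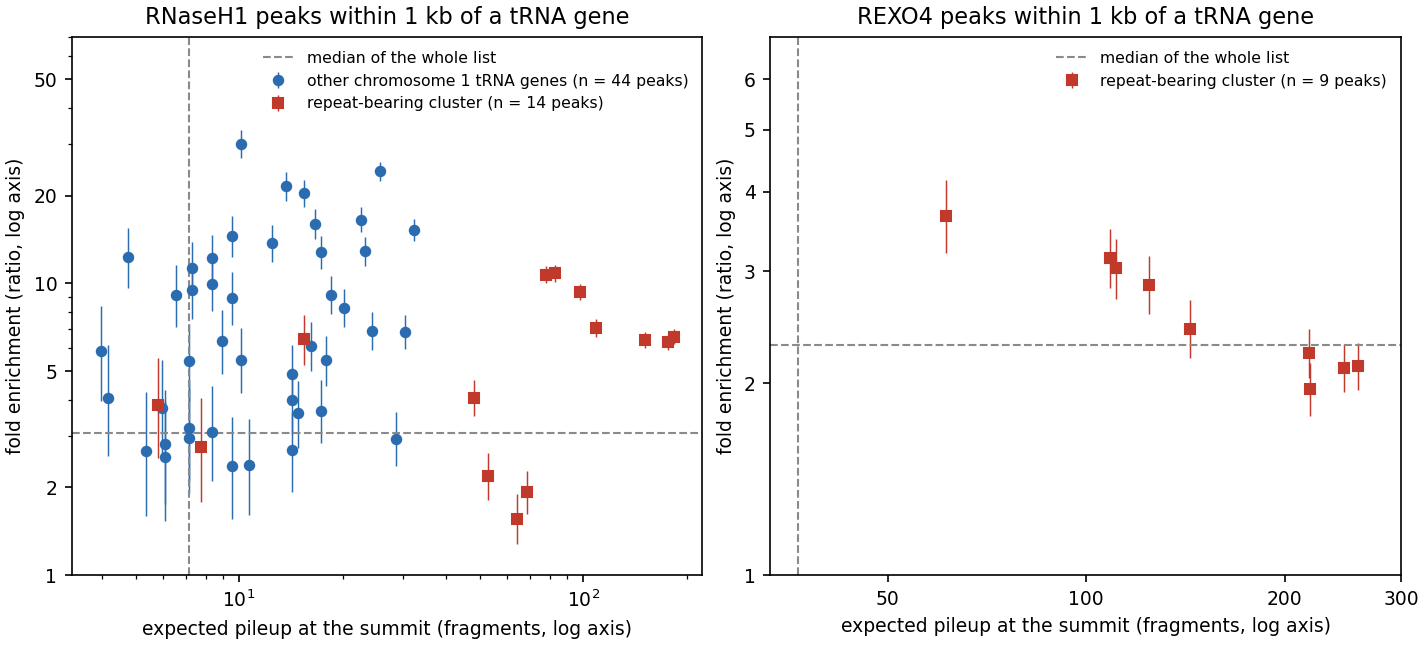
Fold enrichment (ratio, log axis) against the expected pileup at the summit (fragments, log axis) for the 58 RNaseH1 peaks (left) and the 9 REXO4 peaks (right) within 1 kb of a chromosome 1 tRNA gene; squares are peaks of the cluster with the repeats, circles other peaks, vertical lines 95% Poisson intervals of the fragments, and dashed lines the medians of each whole list. Most squares lie to the right of every circle, from 48.2 fragments up, and all 9 REXO4 squares lie right of the median of their list.

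At higher coordinates than the array, the same chain of genes went on with TRG-GCC4-1, which had no peak of either protein, and then with 5 genes that had RNaseH1 folds of 8.93 to 21.5 and no REXO4 peak. TRG-GCC2-1, within the span of FCGR2A, had 8.93 (7.23 to 10.9). TRL-CAG1-6 with TRG-TCC2-6, TRN-GTT1-1 and TRL-CAA6-1 followed with the folds given above. At the other end of the chain, TRV-CAC1-1 had 6.89 (5.91 to 7.99). Far from it, near the end of the long arm, TRL-CAA4-1 and TRE-CTC2-1 shared a peak of 12.8 (11.2 to 14.6) within the span of PGBD2, a gene derived from a transposase.

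Genes that make or mature tRNAs all had RNaseH1 peaks, where 42.8% of all genes did. The 13 genes of RNA polymerase III subunits had them with a median fold of 2.84, led by POLR3E with 18.5. All 6 TFIIIC genes had one (median 3.33, highest 5.43 at GTF3C3), as did all 5 genes of TFIIIB and its repressor MAF1 (median 4.39, highest 7.64 at BDP1). The 15 genes of tRNA end processing and export and the 6 of tRNA splicing all had one too, with medians of 3.28 and 3.77 and highest folds of 4.44 at POP7 and 5.04 at TSEN15. No gene of these 5 lists had a REXO4 peak, a share near the 2.61% of all genes. Most of them are protein genes and far longer than a tRNA gene, so their counts are not comparable with the tRNA gene counts. The 42.8% covers genes of all kinds and lengths, so it is not a matched share for these lists either.

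The 17 annotated 5S rRNA genes of chromosome 1, the other large set of RNA polymerase III genes there and also a tandem array, were marked by both proteins. All 17 had an RNaseH1 peak, with a median fold of 7.59 and a highest of 9.74 at RNA5S4, and 11 had a REXO4 peak, with a median of 2.16 and a highest of 2.48 at RNA5S16. By the same window 19 of 85 tRNA genes had a REXO4 peak, and both sets held theirs within a tandem array.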

How the data were processed

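Flag ChIP-seq of the 2 nuclease-dead proteins was deposited as 1 narrowPeak list per protein, in hg38 coordinates. Per the submitters' processing notes, the tools used included Trim Galore 0.6.10, HISAT2 2.2.1, SAMtools 1.17, deepTools 3.5.1 and MACS2 2.1.0.20150731. For replicates, control library and threshold of the calls, nothing was given in the sources used. The peak names carry no doxycycline condition, and the largest q was 0.198 (RNaseH1) and 0.179 (REXO4).

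The fold enrichment (a ratio), the −log10 p and −log10 q, and an integer score of each peak are the authors' deposited values. The score was not used. Fragments and expected pileup were recovered here from fold and p, by finding the fragment number with a Poisson tail equal to that p and accepting it when whole within 0.05 fragments, for 54623 and 1459 peaks. This was tested on simulated data.

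Gene positions came from RefSeq. The table has no strand or exons, 831 of its 59792 genes off the assembled chromosomes were left out, and 13 of those were chromosome 1 tRNA genes. A gene takes the highest fold among its peaks, with an overlap of at least 1 bp. The text names every gene of the repeat cluster, the 12 genes of highest RNaseH1 fold, the highest of each amino acid, genes over 100 kb from any other and genes without a peak. All are descriptions without tests, since there is no value per library. Members, lists and alternatives were chosen with earlier results of these data known. Python 3.11.15, pandas 2.3.3 and SciPy 1.17.1 were used.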

Additional observations from a re-analysis of the deposited data

How the results depend on the processing

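The number of genes with an RNaseH1 peak stayed between 62 and 70 with no window, windows of 250 or 2500 bp, the summit in place of any overlap, or q of at most 0.05 or 1e-05. Without the genes of the repeat cluster, a choice made after seeing the data, 43 of 59 genes had one and the median RNaseH1 fold was 9.15. With 1 value per distinct peak that median was 6.37. REXO4 counts depended on the window: with none, 8 genes had a peak, all 8 in the cluster, with a median fold of 2.34. With 250 bp the median was also 2.34 over 18 genes, and with 2500 bp 23 genes had a peak, the added 4 being TRG-GCC1-1 to TRG-GCC1-4. Of 46 alternative values, the other 39 kept each count within 1.5 times its reported value and each median within the 95% order-statistic interval over the genes (6.4 to 9.12 for RNaseH1, 2.44 to 3.14 for REXO4). No paired analysis was possible because the peak lists hold no value per library. Depth limits weak calls: some RNaseH1 peaks here rest on under 30 fragments, although the lowest fold, 1.565 in the array, rested on 101. A gene without a peak may have signal below the caller's threshold.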
